A study of Homo sapiens with 18 samples.

Results

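The genes described here carry glucose from uptake to lactate, in libraries of 2 breast cancer cell lines. They are SLC2A1, HK1, HK2, GPI, PFKP, ALDOA, PGK1, ENO1, PKM and LDHA, chosen by name as the transporter and enzymes of the route, when earlier results of these data were known. These 10 genes took 10 of the 60656 rows of the deposited count table, and their rows held 0.164 to 0.249% of the counts of a library. RNA had been measured by 3′-end messenger RNA sequencing in 18 libraries, with 3 in each of 6 groups. The groups were CAMA-1 and ZR-75-1 cells given DMSO, 500 nM abemaciclib or 500 nM palbociclib, all for 5 days. Both are established oestrogen receptor-positive breast cancer lines, here wild-type parental cells grown in RPMI-1640 medium with 10% fetal bovine serum. Abemaciclib and palbociclib inhibit the cell cycle kinases CDK4 and CDK6, and DMSO is their solvent. Serum and medium were shared by all groups, and glucose use, lactate release and protein were not measured in these libraries.

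Glycolysis splits glucose into pyruvate in the cytosol and yields ATP, NADH and precursors for nucleotides, amino acids and lipids. Glucose enters through facilitative transporters, is trapped by hexokinase as glucose 6-phosphate, and is committed to glycolysis at phosphofructokinase. Pyruvate is either reduced to lactate, which regenerates NAD+, or taken into mitochondria, and many tumour cells send much of it to lactate even when oxygen is present.

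Library totals ran from 2308442 to 4146549 counts, so that 3 counts stood for 0.723 to 1.30 CPM, the share of a library's counts on the usual CPM scale. Levels below are CPM scaled by TMM over all 18 libraries, and log2 fold changes come from the edgeR fit of the 9 libraries of a line. All 7 luminal markers (ESR1, GATA3, FOXA1, KRT8, KRT18, KRT19 and EPCAM) were expressed highly enough to be tested in both lines. Of 8 markers of basal, mesenchymal, endothelial and leukocyte cells, COL1A1 was the exception that reached the test, and KRT5 and COL1A2 were at 0 counts in each library. The cell cycle genes MKI67, CCNA2, RRM2 and TOP2A were lower with each drug in each line. Mitochondrially encoded transcripts took 15.7% ± 0.87 of the counts (SD, n = 3) of CAMA-1 given DMSO, and the shares were 24.8% ± 1.37 for abemaciclib and 23.6% ± 1.15 for palbociclib. The ZR-75-1 shares were 20.2% ± 2.68, 19.5% ± 1.01 and 18.98% ± 0.70 in the same order. The study's methods describe the replicates of a condition as independent cultures.

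The first question was which steps of the route moved under either inhibitor. In CAMA-1, abemaciclib raised 3 members (SLC2A1, HK1 and PKM) and lowered 5 (HK2, PFKP, PGK1, ENO1 and LDHA) at an adjusted p under 0.05, by the edgeR quasi-likelihood test over 11053 genes. Across all genes tested, 20.3% were called higher and 20.1% lower. Palbociclib raised 2 members in that line (SLC2A1 and HK1) and lowered 5 (GPI, PFKP, PGK1, ENO1 and LDHA), where 18.4% of all genes were higher and 18.7% lower. In ZR-75-1, abemaciclib raised 4 members (SLC2A1, HK1, GPI and PKM) and lowered 4 (PFKP, PGK1, ENO1 and LDHA), with 17.9% of 11017 genes higher and 18.3% lower. Palbociclib raised SLC2A1, HK1, GPI and PKM, 4 in all, and lowered 1, ENO1, with 14.5% of all genes higher and 13.4% lower. SLC2A1 and HK1 were thus higher and ENO1 lower in each of the 4 comparisons, and the drugs of a line share their DMSO libraries. In such bulk RNA, a change in a share of cells and a change in RNA per cell cannot be told apart.

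The median log2 fold change of the 9 tested members was −0.37 with abemaciclib and −0.28 with palbociclib in CAMA-1, where all tested genes had medians of 0.01 and 0.00107. In ZR-75-1 the members' medians were 0.25 and 0.19, beside −0.0037 and −0.0080 for all tested genes. As these medians lie between members that went opposite ways, the members are described below one by one, in the order of the route.

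**Figure D1:**
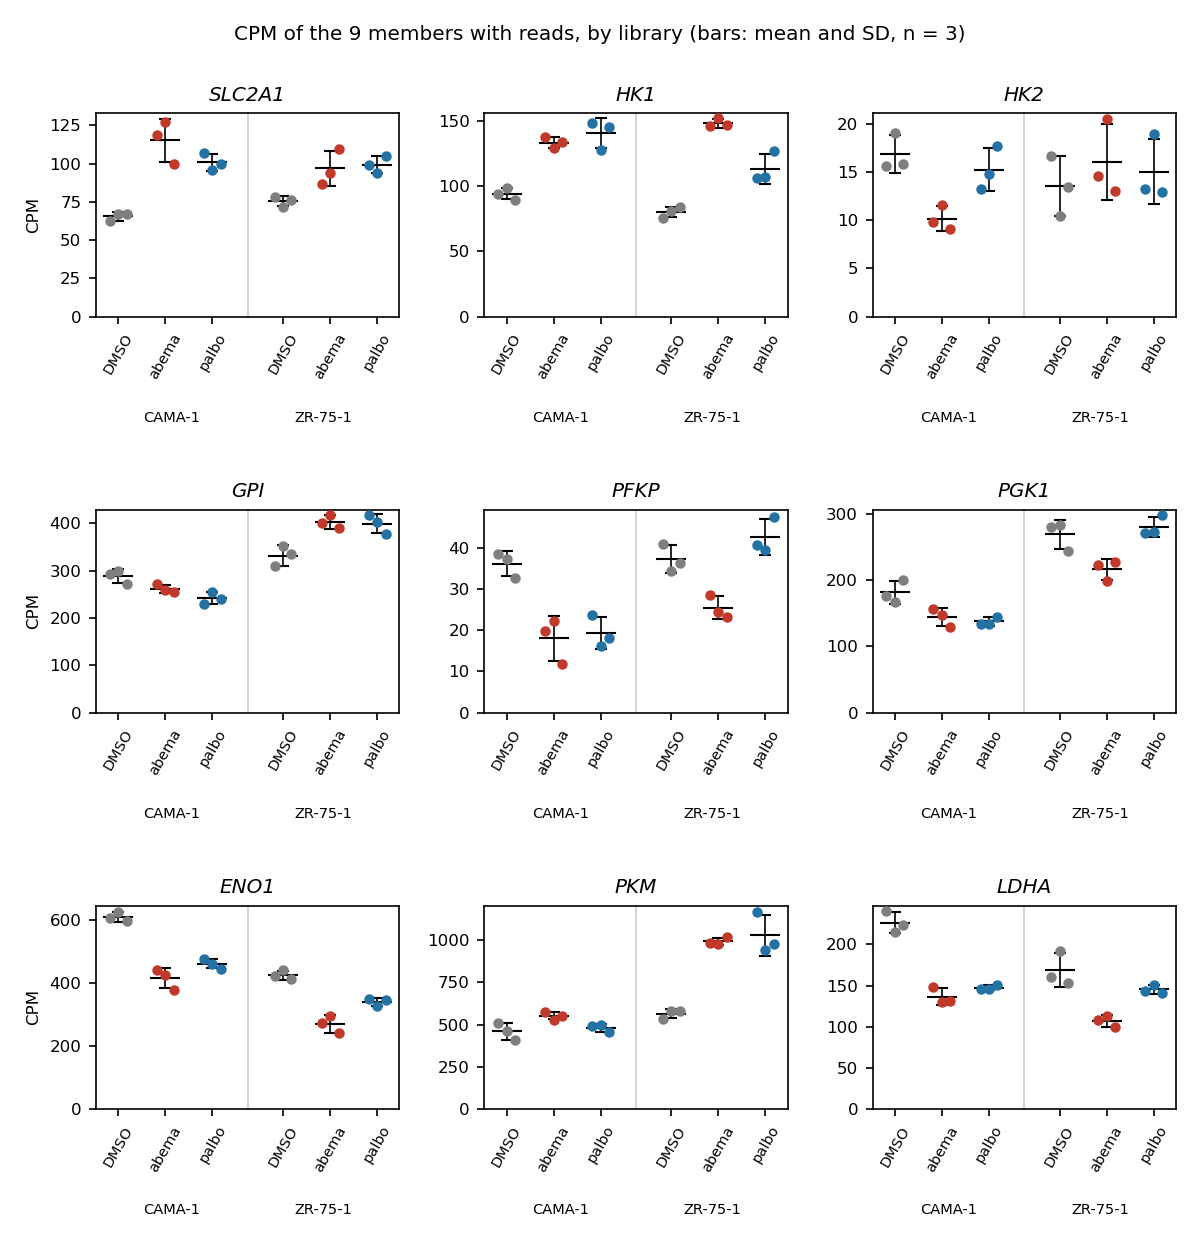
Level of each of the 9 members with reads, as CPM scaled by TMM (vertical axis, from 0), in the 6 groups (horizontal axis, DMSO in grey, abemaciclib in red, palbociclib in blue). Points are libraries and black bars the mean and SD (n = 3). SLC2A1 and HK1 sit above DMSO and ENO1 below it with both drugs in both lines, while PKM is far above DMSO in ZR-75-1, from 565 CPM with DMSO to 994 and 1029.

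SLC2A1 (ENSG00000117394.24, chromosome 1, 42925353 to 42958893) encodes GLUT1, the transporter through which most cells take up glucose. In CAMA-1 its level was 62.3, 67.3 and 67.1 CPM with DMSO, 119, 127 and 99.6 with abemaciclib, and 107, 95.9 and 99.998 with palbociclib. The ZR-75-1 level was 78.3, 71.8 and 76.0 CPM with DMSO, 86.9, 94.1 and 109.7 with abemaciclib, and 99.3, 93.9 and 105 with palbociclib. All 12 drug libraries lay above the DMSO libraries of their line. SLC2A1 rose 1.71-fold with abemaciclib (log2 fold change 0.78, SE 0.10, adjusted p = 3.8e-08) and 1.51-fold with palbociclib (0.59, SE 0.10, adjusted p = 8.6e-06) in CAMA-1. The rises in ZR-75-1 were 1.28-fold (0.35, SE 0.11, adjusted p = 0.0065) and 1.32-fold (0.40, SE 0.10, adjusted p = 0.0023). The call with abemaciclib in ZR-75-1 was lost without abemaciclib replicate 3 (0.26, adjusted p = 0.086).

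HK1 and HK2 encode hexokinases, which phosphorylate glucose and so hold it in the cell. HK1 is the widely expressed form, and HK2 is the form often induced in tumours. HK1 (ENSG00000156515.23, chromosome 10, 69269984 to 69401884) was at 94.2, 98.1 and 89.6 CPM with DMSO in CAMA-1, at 137, 129 and 133 with abemaciclib, and at 148, 127 and 145 with palbociclib. ZR-75-1 libraries held 75.6, 80.7 and 84.0 CPM with DMSO, 146, 152 and 146 with abemaciclib, and 106, 107 and 127 with palbociclib. No drug library overlapped the DMSO libraries of its line. HK1 rose 1.39-fold (0.48, SE 0.09, adjusted p = 3.7e-05) and 1.46-fold (0.55, SE 0.09, adjusted p = 2.9e-06) in CAMA-1, and 1.84-fold (0.88, SE 0.10, adjusted p = 6.5e-11) and 1.41-fold (0.50, SE 0.10, adjusted p = 6.9e-05) in ZR-75-1, abemaciclib first in each pair.

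HK2 (ENSG00000159399.10, chromosome 2, 74834127 to 74893359) went another way and rested on few reads, 27 to 69 counts in a library. Its CAMA-1 libraries held 15.7, 19.1 and 15.9 CPM with DMSO, 9.79, 11.6 and 9.06 with abemaciclib, and 13.2, 14.8 and 17.7 with palbociclib. It fell 1.71-fold with abemaciclib in that line (log2 fold change −0.77, SE 0.23, adjusted p = 0.0065), where the groups did not overlap. With palbociclib the value was −0.18 (95% confidence interval −0.62 to 0.25), and the groups overlapped. In ZR-75-1 the libraries overlapped throughout, from 10.4 to 16.7 CPM with DMSO, 13.0 to 20.5 with abemaciclib and 12.96 to 18.99 with palbociclib, and no difference was detected at this depth (0.25, interval −0.25 to 0.74; 0.14, interval −0.35 to 0.63).

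GPI (ENSG00000105220.17, chromosome 19, 34359480 to 34402413) encodes glucose-6-phosphate isomerase, which turns glucose 6-phosphate into fructose 6-phosphate. In CAMA-1 it was at 294, 300.1 and 273 CPM with DMSO, 272, 259.6 and 256 with abemaciclib, and 229.6, 256 and 241 with palbociclib. The ZR-75-1 level was 309, 352 and 335 CPM with DMSO, 400.1, 419 and 391 with abemaciclib, and 417, 404 and 378 with palbociclib. The drug libraries were all below DMSO in CAMA-1 and all above it in ZR-75-1. GPI fell 1.22-fold with palbociclib in CAMA-1 (−0.28, SE 0.07, adjusted p = 0.0017), while the value with abemaciclib (−0.17, SE 0.07, adjusted p = 0.064) passed the threshold only without DMSO replicate 3 (−0.21, adjusted p = 0.019). It rose 1.21-fold with abemaciclib (0.27, SE 0.07, adjusted p = 0.0017) and 1.2-fold with palbociclib (0.26, SE 0.07, adjusted p = 0.0033) in ZR-75-1.

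PFKP (ENSG00000067057.17, chromosome 10, 3066333 to 3137718) encodes the platelet-type phosphofructokinase, one of the isozymes of the committing step. Its CAMA-1 libraries held 38.3, 37.2 and 32.6 CPM with DMSO, 19.9, 22.3 and 11.9 with abemaciclib, and 23.6, 16.2 and 18.0 with palbociclib. Its ZR-75-1 libraries held 40.9, 34.4 and 36.3 CPM with DMSO, 28.5, 24.3 and 23.3 with abemaciclib, and 40.7, 39.3 and 47.4 with palbociclib. All drug libraries but those of palbociclib in ZR-75-1 lay under the DMSO libraries of their line. PFKP fell 2.06-fold (−1.04, SE 0.19, adjusted p = 1.6e-05) and 1.88-fold (−0.91, SE 0.18, adjusted p = 7.7e-05) in CAMA-1, the largest changes of the 9 members there, and 1.47-fold with abemaciclib in ZR-75-1 (−0.55, SE 0.16, adjusted p = 0.0045). With palbociclib in ZR-75-1 it was 0.19 (interval −0.10 to 0.48, adjusted p = 0.36).

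ALDOA (ENSG00000149925.22, chromosome 16, 30064164 to 30070457) encodes the aldolase that splits fructose 1,6-bisphosphate in most tissues. Its row held 1 count in ZR-75-1 DMSO replicate 2 and 0 counts in each other library, which allows up to 3 counts, or 0.723 to 1.30 CPM, in a library. It did not reach the test. In GENCODE release 44 its exons share 1639 of 3829 bases with ENSG00000285043, an overlapping protein-coding entry on the same strand, and 370 of its last 500 bases lie in exons of that entry, whose row held 0 counts. How the counting treated reads over both entries was not stated, and whether that set the value of ALDOA was not tested. No statement on aldolase A expression is drawn from this row, and 9 of the 10 members passed the filter on low counts.

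PGK1 (ENSG00000102144.15, chromosome X, 77910739 to 78129295) encodes phosphoglycerate kinase, the first step of the route that makes ATP. With DMSO, abemaciclib and palbociclib in turn, CAMA-1 held 177, 167 and 201, then 156, 147 and 129.6, then 134, 134 and 145 CPM. ZR-75-1 held 279.7, 284 and 244 CPM with DMSO, 223, 198 and 227 with abemaciclib, and 271, 273 and 298 with palbociclib. The first 3 drug groups named lay wholly under their DMSO libraries and the last overlapped them. PGK1 fell 1.29-fold (−0.37, SE 0.09, adjusted p = 6.4e-04) and 1.35-fold (−0.44, SE 0.09, adjusted p = 7.0e-05) in CAMA-1 and 1.25-fold with abemaciclib in ZR-75-1 (−0.33, SE 0.08, adjusted p = 7.8e-04). With palbociclib in ZR-75-1 the value was 0.06 (interval −0.10 to 0.21). The annotated span of PGK1 overlaps ATP7A on the same strand, whose row held 4.45% as many counts as PGK1.

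ENO1 (ENSG00000074800.16, chromosome 1, 8861000 to 8879190) encodes alpha-enolase, which makes phosphoenolpyruvate. In CAMA-1 it was at 606, 625 and 595 CPM with DMSO, 439, 424 and 378 with abemaciclib, and 474, 460.1 and 445 with palbociclib. The ZR-75-1 level was 419.8, 439 and 412 CPM with DMSO, 273, 296 and 239 with abemaciclib, and 349, 325 and 345 with palbociclib. Each of the 12 drug libraries lay below the DMSO libraries of its line. ENO1 fell 1.5-fold (−0.59, SE 0.07, adjusted p = 9.4e-10) and 1.35-fold (−0.44, SE 0.07, adjusted p = 6.7e-07) in CAMA-1, and 1.58-fold (−0.66, SE 0.07, adjusted p = 1.3e-10) and 1.25-fold (−0.32, SE 0.07, adjusted p = 4.6e-04) in ZR-75-1.

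PKM (ENSG00000067225.18, chromosome 15, 72199029 to 72231819) encodes the muscle-type pyruvate kinase, which makes pyruvate and ATP. Its splice forms PKM1 and PKM2 cannot be told apart in gene counts. CAMA-1 libraries held 509.8, 462 and 409.5 CPM with DMSO, 573, 529.5 and 553 with abemaciclib, and 491, 499.6 and 455 with palbociclib. ZR-75-1 libraries held 535, 579.8 and 579 CPM with DMSO, 984, 979.5 and 1017 with abemaciclib, and 1168, 941 and 978 with palbociclib. The lowest drug library of ZR-75-1 was far above its highest DMSO library, and PKM rose there 1.75-fold (0.81, SE 0.07, adjusted p = 3.0e-14) and 1.82-fold (0.86, SE 0.07, adjusted p = 6.6e-15). In CAMA-1 the rise with abemaciclib was 1.18-fold (0.23, SE 0.07, adjusted p = 0.0066), a call that was lost without DMSO replicate 3 (0.15, adjusted p = 0.071). With palbociclib in CAMA-1 the groups overlapped (0.04, interval −0.10 to 0.18).

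LDHA (ENSG00000134333.14, chromosome 11, 18394560 to 18408425) encodes the subunit of lactate dehydrogenase that is best known for turning pyruvate into lactate. Its CAMA-1 libraries held 240.2, 216 and 224 CPM with DMSO, 148, 129.6 and 132 with abemaciclib, and 146, 146 and 151 with palbociclib. Its ZR-75-1 libraries held 160.1, 192 and 153 CPM with DMSO, 108, 113 and 99.1 with abemaciclib, and 144, 151 and 141 with palbociclib. All 12 drug libraries lay below the DMSO libraries of their line, by a narrow margin with palbociclib in ZR-75-1. LDHA fell 1.69-fold (−0.76, SE 0.08, adjusted p = 2.4e-10) and 1.57-fold (−0.65, SE 0.08, adjusted p = 7.6e-09) in CAMA-1 and 1.59-fold with abemaciclib in ZR-75-1 (−0.67, SE 0.09, adjusted p = 3.7e-08). With palbociclib in ZR-75-1 the value of −0.22 (interval −0.40 to −0.04, adjusted p = 0.058) did not pass, but did so with upper-quartile factors (adjusted p = 0.040), under a stricter filter (adjusted p = 0.041) and without DMSO replicate 3 (−0.29, adjusted p = 0.022). Without DMSO replicate 2 it was −0.11 (adjusted p = 0.44), the smallest value with 1 library left out, and DESeq2 did not call it either.

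**Figure D2:**
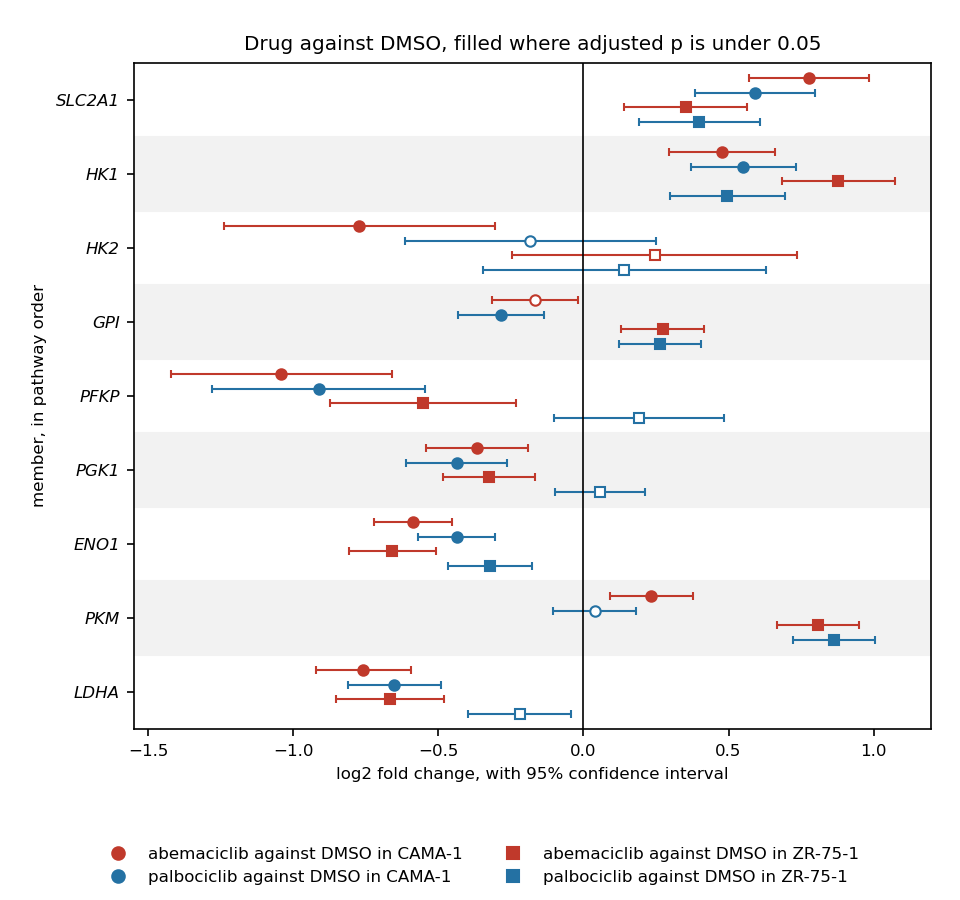
Log2 fold change against DMSO (horizontal axis) of the 9 tested members, listed from uptake to lactate on the vertical axis, with 95% confidence intervals. Circles are CAMA-1 and squares ZR-75-1, red is abemaciclib and blue palbociclib, and filled symbols have an adjusted p under 0.05. SLC2A1 and HK1 lie right of 0 and ENO1 left of it in all 4 comparisons, and PFKP, PGK1 and LDHA lie left of 0 with filled symbols in 3 of them.

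PGK1, ENO1 and LDHA, which fell together in 3 comparisons, and SLC2A1, which rose in all 4, are shown here with the 250 bases before their start (RefSeq, GRCh38.p14), so that the short motifs in them can be seen. Capitals mark ACGTG or GCGTG, the core that hypoxia-inducible factors bind, and CACGTG, the E-box bound by MYC and by the glucose-sensing factors MondoA and ChREBP. Both strands were searched, so a core can read CACGT or CACGC, and an E-box holds the core on each strand. The windows are chrX:78103998-78104247 (plus strand), chr1:8878687-8878936 (minus strand), chr11:18394313-18394562 (plus strand, the first of 2 listed starts) and chr1:42958869-42959118 (minus strand).
PGK1 promoter: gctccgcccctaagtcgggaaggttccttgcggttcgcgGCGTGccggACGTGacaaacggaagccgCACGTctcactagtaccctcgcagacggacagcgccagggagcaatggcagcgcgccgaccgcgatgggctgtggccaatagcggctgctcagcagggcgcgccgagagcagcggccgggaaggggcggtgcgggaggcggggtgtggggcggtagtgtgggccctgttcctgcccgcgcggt
ENO1 promoter: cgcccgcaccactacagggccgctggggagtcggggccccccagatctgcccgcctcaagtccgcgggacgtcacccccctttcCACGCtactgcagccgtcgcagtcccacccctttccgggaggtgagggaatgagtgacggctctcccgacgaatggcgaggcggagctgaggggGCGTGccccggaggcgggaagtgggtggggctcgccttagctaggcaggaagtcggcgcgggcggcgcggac
LDHA promoter: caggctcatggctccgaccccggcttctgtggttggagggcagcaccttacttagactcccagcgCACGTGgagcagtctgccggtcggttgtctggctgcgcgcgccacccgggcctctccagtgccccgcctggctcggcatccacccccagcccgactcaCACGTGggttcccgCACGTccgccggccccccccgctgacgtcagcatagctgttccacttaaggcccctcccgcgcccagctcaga
SLC2A1 promoter: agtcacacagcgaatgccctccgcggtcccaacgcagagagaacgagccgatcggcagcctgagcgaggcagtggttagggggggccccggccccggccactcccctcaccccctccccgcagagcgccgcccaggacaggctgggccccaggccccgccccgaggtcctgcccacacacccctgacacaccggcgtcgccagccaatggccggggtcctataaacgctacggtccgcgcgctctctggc
Counted this way, the core matched 3 times in the PGK1 stretch, 2 times in ENO1 and 5 times in LDHA, where all but 1 of the matches belong to 2 E-boxes. SLC2A1 had no match before its start and 1 in the 50 bases after it. PFKP, lower in the 3 comparisons in which PGK1 and LDHA fell, and HK1, higher in all 4, are not printed. The stretches shown therefore do not compare members that fell with members that rose. Over the full windows of 300 bases, all 10 members had at least 1 of their 23 listed windows with a core, 16 windows in all (69.6%), against 48.4% of the 35116 windows of all genes. A core stood in 2 of the 4 PFKP windows and in 2 of the 7 HK1 windows. An E-box stood in 3 member windows, 1 each of HK2, ALDOA and LDHA, and in 7.26% of all windows. No member window held an E2F site (TTTCGCGC, TTTGGCGC, TTTCCCGC or TTTGCCGC on either strand), which 3.31% of all windows held. A match describes these letters and was not tested for binding, and HK1, HK2, PFKP, ALDOA and LDHA have more than 1 listed start, between which 3′-end reads do not choose.

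The next question was whether the inhibitors differed from each other. In CAMA-1 they were not told apart at any member: 0 of the 9 were called higher and 0 lower with abemaciclib than with palbociclib (edgeR), where 0.796% and 1.53% of all genes were called, and DESeq2 also called 0. At an unadjusted p under 0.05 there were 3 members, PKM (0.20, interval 0.05 to 0.34), HK2 (−0.59, interval −1.06 to −0.12) and ENO1 (−0.15, interval −0.29 to −0.02), each with groups that did not overlap. No share of all genes is given here for an unadjusted p or for groups without overlap. No difference between the drugs is drawn from these 3. The intervals of the other 6 members lay between −0.54 (PFKP) and 0.38 (SLC2A1). PKM passed the adjusted threshold without DMSO replicate 3 (adjusted p = 0.043).

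In ZR-75-1 the drugs differed at 5 members, with 1 higher and 4 lower with abemaciclib, where 5.23% of all genes were higher and 7.94% lower. HK1 was 1.3-fold higher (0.38, SE 0.09, adjusted p = 0.0025). PFKP was 1.67-fold lower (−0.74, SE 0.16, adjusted p = 3.8e-04), LDHA 1.36-fold lower (−0.45, SE 0.09, adjusted p = 3.9e-04), PGK1 1.3-fold lower (−0.38, SE 0.08, adjusted p = 3.2e-04) and ENO1 1.26-fold lower (−0.34, SE 0.08, adjusted p = 8.9e-04). The abemaciclib and palbociclib libraries did not overlap for these 5, and no share of all genes without overlap is given here. SLC2A1, HK2, GPI and PKM overlapped, with intervals of −0.25 to 0.16, −0.38 to 0.58, −0.13 to 0.15 and −0.19 to 0.09. The cell cycle gene MKI67 was also lower with abemaciclib, at 8.65 CPM against 195 with palbociclib in ZR-75-1, and 43.3 against 80.0 in CAMA-1. Its part in the members' differences was not tested.

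Responses to a drug were then compared between the lines, in 1 edgeR fit over the 18 libraries with 11987 genes tested. For abemaciclib the response in ZR-75-1 was above that in CAMA-1 at 4 members and below it at 1, against 8.19% and 10.0% of all genes. PKM (0.55, SE 0.10, adjusted p = 3.6e-05) and GPI (0.42, SE 0.10, adjusted p = 0.0018) had the differences with the smallest p. Those of HK2 (0.99, SE 0.34, adjusted p = 0.032), HK1 (0.38, SE 0.13, adjusted p = 0.038) and SLC2A1 (−0.45, SE 0.15, adjusted p = 0.026) were less stable when 1 library was left out. The SLC2A1 call was lost in 13 of 18 such fits, being kept without CAMA-1 abemaciclib replicate 3, ZR-75-1 DMSO replicate 3, ZR-75-1 abemaciclib replicate 3 or ZR-75-1 palbociclib replicates 1 or 2, and it was also lost without the mitochondrially encoded rows (−0.40, adjusted p = 0.051). The HK2 call was lost in 5 fits (without CAMA-1 DMSO replicate 2, abemaciclib replicates 1 or 3, ZR-75-1 DMSO replicate 2 or abemaciclib replicate 2, down to 0.78, adjusted p = 0.15). The HK1 call was lost in 3 (without ZR-75-1 DMSO replicate 1 or abemaciclib replicates 2 or 3, down to 0.34, adjusted p = 0.10). ENO1, LDHA and PGK1 gave −0.09 (interval −0.30 to 0.11), 0.07 (interval −0.18 to 0.32) and 0.02 (interval −0.22 to 0.26).

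For palbociclib the response was above that of CAMA-1 at 5 members and below it at none, where 10.0% of all genes were above and 10.3% below. PFKP differed by 1.07 (SE 0.23, adjusted p = 3.7e-04), PKM by 0.80 (SE 0.10, adjusted p = 7.9e-09), GPI by 0.52 (SE 0.10, adjusted p = 6.9e-05), PGK1 by 0.47 (SE 0.12, adjusted p = 0.0023) and LDHA by 0.40 (SE 0.12, adjusted p = 0.011). The LDHA call was lost without ZR-75-1 DMSO replicate 3 (0.34, adjusted p = 0.052). DESeq2 also called 0 below, and the members at an unadjusted p under 0.05 were these 5. GPI was the member that was called in opposite directions, lower in CAMA-1 and higher in ZR-75-1. MKI67 was also less lowered by palbociclib in ZR-75-1 than in CAMA-1 (difference 1.02, adjusted p = 5.1e-09), and whether this bears on the members was not tested.

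**Figure D3:**
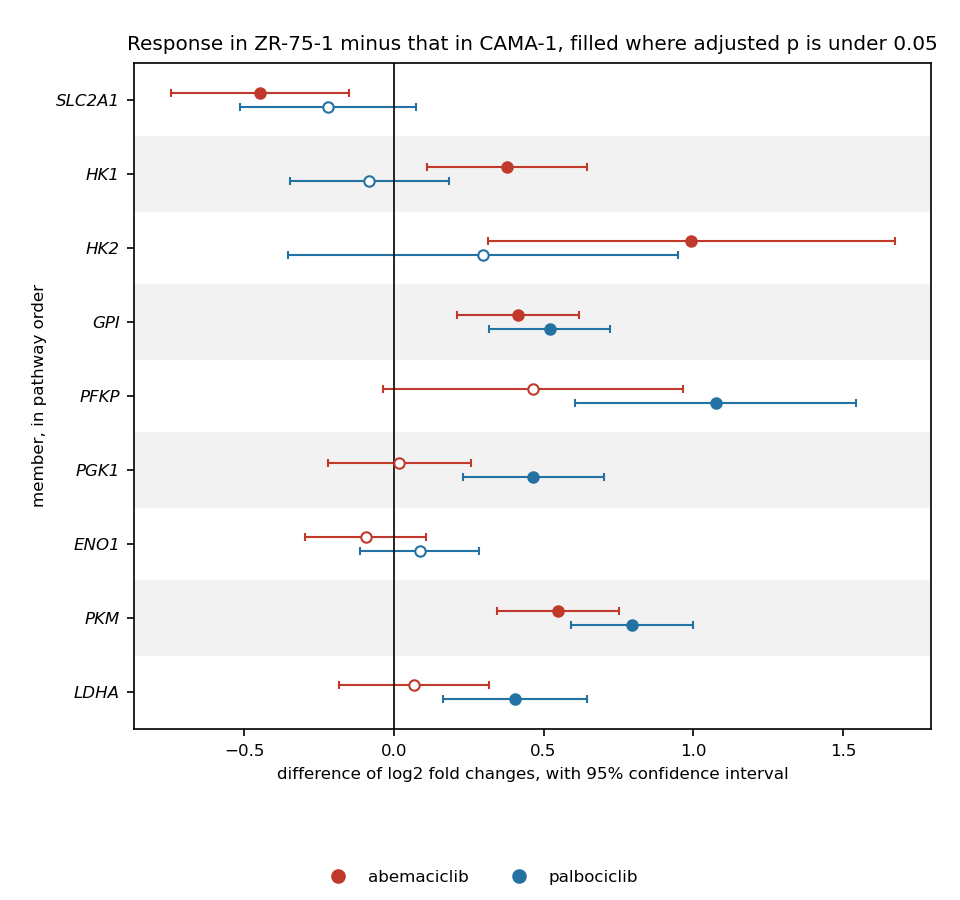
Difference between the lines in the response of the 9 tested members (vertical axis), the CAMA-1 log2 fold change being subtracted from the ZR-75-1 one (horizontal axis), with 95% confidence intervals. Red is abemaciclib, blue is palbociclib, and filled symbols have an adjusted p under 0.05. PKM and GPI lie right of 0 with both drugs, and SLC2A1 with abemaciclib is the filled symbol left of 0.

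With DMSO the lines differed at 6 of the 9 tested members. PGK1 (1.48-fold, 0.56, SE 0.08, adjusted p = 2.3e-08), PKM (1.23-fold, 0.30, SE 0.07, adjusted p = 3.4e-04) and GPI (1.15-fold, 0.20, SE 0.07, adjusted p = 0.012) were the 3 higher in ZR-75-1, and ENO1 (1.44-fold, −0.52, SE 0.07, adjusted p = 2.2e-09), LDHA (1.34-fold, −0.43, SE 0.08, adjusted p = 1.4e-05) and HK1 (1.17-fold, −0.23, SE 0.10, adjusted p = 0.039) the 3 lower. Of all genes, 31.5% were higher in ZR-75-1 and 29.8% lower, so 3 and 3 of 9 members were near the shares of all genes. The GPI call was lost in 11 of 18 fits that left out 1 library and was kept without CAMA-1 abemaciclib replicate 1, ZR-75-1 DMSO replicates 1 or 3, ZR-75-1 abemaciclib replicates 2 or 3 or ZR-75-1 palbociclib replicates 1 or 2. Without ZR-75-1 DMSO replicate 2 it was 0.11 (adjusted p = 0.26) and without CAMA-1 DMSO replicate 3 it was 0.13 (adjusted p = 0.17). Without the latter library the PKM difference moved to 0.18, still past the threshold. The HK1 call was lost without ZR-75-1 DMSO replicate 1 (−0.19, adjusted p = 0.14), with upper-quartile factors (−0.19, adjusted p = 0.089) and without a filter (−0.23, adjusted p = 0.078).

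Summed over the members, the levels went opposite ways in the lines, and the rise in ZR-75-1 rested mainly on PKM. The sum in CAMA-1 was 1979 ± 65.4 CPM (SD, n = 3) for DMSO, which compares with 1785 ± 85.8 for abemaciclib and 1745 ± 24.4 for palbociclib. The ZR-75-1 sums were 1964 ± 69.7, 2276 ± 17.7 and 2464 ± 131 CPM in the same order. The 6 drug libraries of CAMA-1 lay below its DMSO libraries and the 6 of ZR-75-1 above theirs. By exact permutation of libraries, two-sided, p was 0.1 in each of the 4 comparisons, which is the smallest that 3 against 3 libraries can give. ENO1 and PKM held most of the reads summed, PKM alone 40.0 to 44.9% of the sum in the drug libraries of ZR-75-1. In CAMA-1 the mean of ENO1 went from 609 CPM with DMSO to 414 and 459.5 with the drugs and that of LDHA from 227 to 136 and 148, while the mean of PKM was higher with both drugs than with DMSO, against the direction of the sum. The mitochondrially encoded share of CAMA-1 was higher with the drugs while its sum was lower. Without the mitochondrially encoded rows the log2 ratio of the sum was −0.19 with abemaciclib and −0.21 with palbociclib, against −0.15 and −0.18 with them. The number of members called in CAMA-1 was also 8 with abemaciclib and 7 with palbociclib without those rows.

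Across the 18 libraries, with the mean of its line subtracted from each log2 CPM, the members fell into a pattern that their calls already show. ENO1 and LDHA had r = 0.94, PFKP and PGK1 r = 0.82, and HK1 and ENO1 r = −0.89, while the closest member to GPI was PKM (r = 0.67) and to HK2 was SLC2A1, inversely (r = −0.38). These values describe libraries that share 6 groups and their depth, and are given without a test. Among 5123 genes with at least 20 CPM in both lines, LDHA was most like SPAG5 (r = 0.98), a spindle protein gene, and NDUFS6 (r = 0.97), a subunit of respiratory complex I. ENO1 was most like TMPO (r = 0.97), which encodes a nuclear envelope protein, and CALM3 (r = 0.97), a calmodulin gene. ATP6AP2, a gene of the vacuolar proton pump, was among the genes most like HK1 (r = 0.96). SLC2A1 was most like WIPI1 (r = 0.94), which acts in autophagy, and DBNDD1 (r = 0.94). PKM was most like CALR (r = 0.94), an endoplasmic reticulum chaperone gene, and UBL5 (r = 0.94). GPI was most like POLR2L (r = 0.92) and COX4I1 (r = 0.90), PFKP like SNRPA1 (r = 0.91) and RPS27 (r = 0.90), PGK1 like EMD (r = 0.88) and KRTCAP3 (r = 0.88), and HK2 like C5orf22 (r = 0.81) and UBAC1 (r = 0.78).

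The enzymes of the steps between the members did not all move with their neighbours. GAPDH, which oxidises glyceraldehyde 3-phosphate just before PGK1, was at 1150.2, 1219 and 1278 CPM in the CAMA-1 DMSO libraries, and both drugs lowered it there (−0.67, adjusted p = 3.1e-12 for abemaciclib; −0.68, adjusted p = 1.9e-12 for palbociclib). Abemaciclib raised it in ZR-75-1 (0.21, adjusted p = 0.016), where palbociclib gave an uncalled 0.11, and with DMSO it was higher than in CAMA-1 (2.23, adjusted p = 3.8e-37). TPI1, the triose phosphate isomerase, fell with both drugs in CAMA-1 (−0.57, adjusted p = 9.7e-07; −0.48, adjusted p = 1.9e-05) and with abemaciclib in ZR-75-1 (−0.44, adjusted p = 1.4e-06), the comparisons in which PGK1 fell. PGAM1, the phosphoglycerate mutase, had 3 to 40 counts in a library and rose with abemaciclib in ZR-75-1 (1.70, adjusted p = 3.6e-04).

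Isozyme partners of the members were mostly rare. PFKL, the liver-type phosphofructokinase, was called higher in the 3 comparisons in which PFKP fell (0.36, adjusted p = 0.0090 and 0.31, adjusted p = 0.026 in CAMA-1, and 0.32, adjusted p = 0.040 with abemaciclib in ZR-75-1). In ZR-75-1 the libraries overlapped, at 82.9, 96.9 and 57.6 CPM with abemaciclib and 71.4, 59.8 and 58.7 with DMSO. PFKM, the muscle type, was called in none of the 4 comparisons with DMSO by edgeR (−0.27 to 0.46). ENO2, the neuronal enolase, was at 154 to 173 counts with DMSO in ZR-75-1 and fell with abemaciclib (−1.62, adjusted p = 9.7e-13), and with palbociclib its value was −0.19, while it was at most 9 counts in a CAMA-1 library. LDHB, the heart-type lactate dehydrogenase subunit, fell in ZR-75-1 from 27 to 40 counts with DMSO to 3 or 4 with abemaciclib (−2.99, adjusted p = 1.0e-06) and 5 to 14 with palbociclib (−1.84, adjusted p = 3.7e-04). In CAMA-1 LDHB had at most 5 counts. ALDOC, another aldolase gene, had 22 to 32 counts with palbociclib in CAMA-1, where it rose from 9 to 15 (1.15, adjusted p = 0.023). SLC2A3, which encodes GLUT3, had at most 6 counts and was not tested. HKDC1, a further hexokinase gene, was at 0 counts in each library, and PDK1 and PFKFB4, which encode kinases acting on pyruvate dehydrogenase and on fructose 6-phosphate, had at most 29 and 13 counts and were called in no comparison with DMSO by edgeR.

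**Figure D4:**
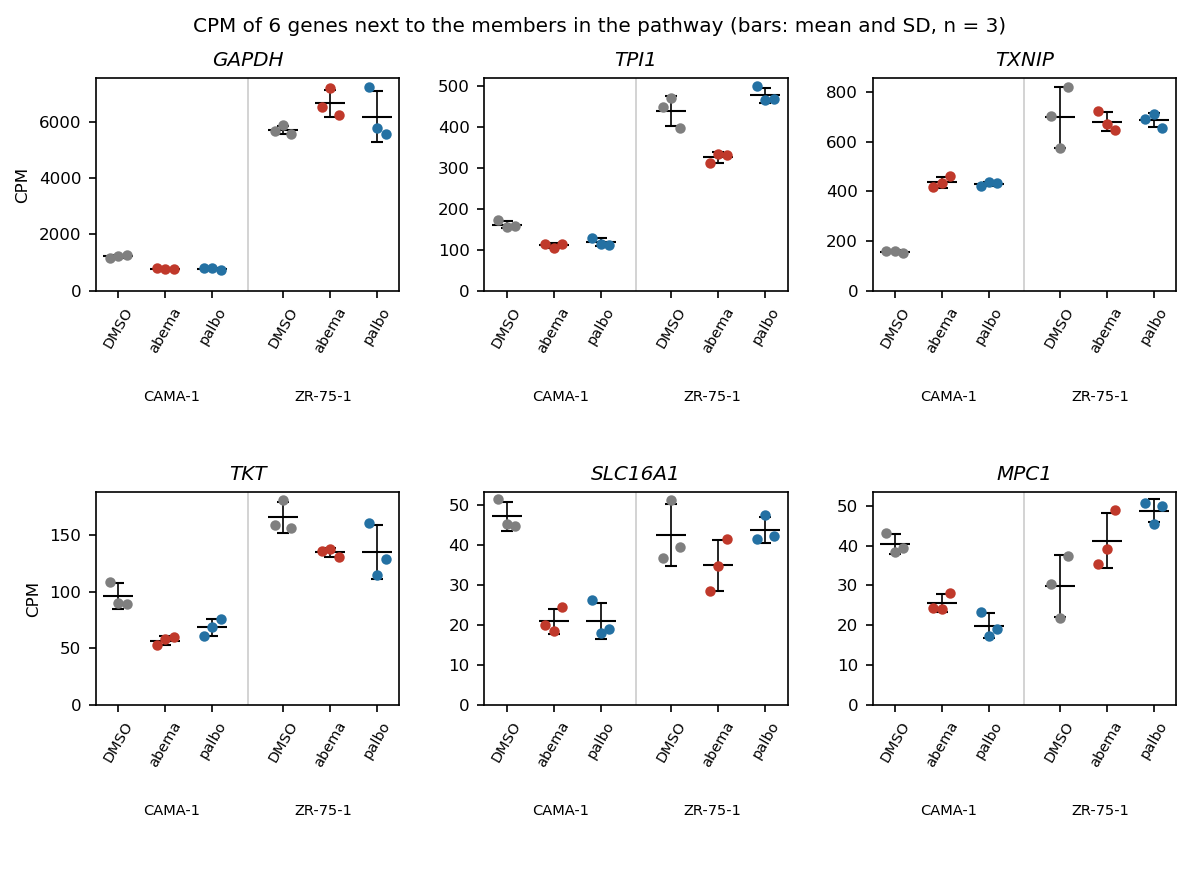
Level of 6 genes next to the members in the pathway, as CPM scaled by TMM (vertical axis, from 0), in the 6 groups (horizontal axis), with libraries as points and the mean and SD as black bars (n = 3). TKT was called lower with each drug in both lines, though its palbociclib libraries overlap DMSO in ZR-75-1. TXNIP is above DMSO in CAMA-1 and at 699.7 CPM with DMSO in ZR-75-1. MPC1 is below DMSO in CAMA-1 and higher than it on average in ZR-75-1.

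Of 12 other glucose transporter genes, 5 were tested. With abemaciclib in CAMA-1, 2 were higher and 0 lower (SLC2A6 0.76 and SLC2A11 0.43), and with palbociclib 1 was higher (SLC2A6, 1.14). In ZR-75-1, SLC2A8 was higher with both drugs (0.96 and 0.55) and SLC2A10 lower with palbociclib (−0.85). Of 20 other glycolytic enzyme genes, 8 were tested in CAMA-1 and 9 in ZR-75-1. There was 1 higher and 2 lower, then 2 and 2, 3 and 3, and 0 and 1 in the order of the comparisons above. Of all genes tested, 20.3, 18.4, 17.9 and 14.5% were called higher in that order. The shares called lower were 20.1, 18.7, 18.3 and 13.4%. The counts of the gene lists below stand beside these same shares.

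Genes that set the flow through the members came next. TXNIP, which encodes a protein that holds back glucose uptake and is itself induced by glucose, rose in CAMA-1 from 161, 160.4 and 151 CPM with DMSO to 418, 433 and 460.4 with abemaciclib (1.45, adjusted p = 2.1e-20) and 421, 437 and 433 with palbociclib (1.42, adjusted p = 4.4e-20). In ZR-75-1 no change was detected (−0.04 and −0.03), and the lines differed in this response (−1.51, adjusted p = 2.3e-17; −1.48, adjusted p = 5.9e-17). TIGAR, a phosphatase that lowers fructose 2,6-bisphosphate, rose in all 4 comparisons (1.12, 1.05, 0.57 and 0.59), with adjusted p of 0.047 and 0.044 in ZR-75-1. MLXIP, which encodes MondoA, also rose in all 4 (0.57, 0.46, 0.95 and 1.03). HIF1A, a subunit gene of the hypoxia-inducible factor, rose under both drugs in ZR-75-1 (0.52, adjusted p = 1.2e-04; 0.74, adjusted p = 2.0e-07), and its values in CAMA-1 were 0.12 and −0.03. PFKFB3, a kinase that makes fructose 2,6-bisphosphate, rose with palbociclib in ZR-75-1 (0.57, adjusted p = 0.0052), and MYC fell there (−0.51, adjusted p = 0.047). Of the 9 regulators tested, 3 were higher and 0 lower with each drug in CAMA-1, and in ZR-75-1 5 and 0 under abemaciclib but 5 and 1 under palbociclib, with medians of 0.45, 0.35, 0.52 and 0.59 beside medians of all tested genes within 0.01 of 0.

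Genes at the exits of the route were described in the same way. TKT, the transketolase that links the pentose phosphate pathway to glycolysis, fell in all 4 (−0.79, −0.52, −0.31 and −0.30). With palbociclib in ZR-75-1 its libraries overlapped, at 161, 115 and 128 CPM against 159, 181 and 157 with DMSO. SLC16A1, which encodes the lactate carrier MCT1, fell in CAMA-1 (−1.19, adjusted p = 6.9e-08; −1.17, adjusted p = 6.9e-08), and its response was higher in ZR-75-1 with both drugs (0.87, adjusted p = 0.0040; 1.18, adjusted p = 3.4e-05). SLC16A3, which encodes MCT4, was at 18 to 36 counts with DMSO and 2 to 4 with abemaciclib in ZR-75-1 (−2.72, adjusted p = 8.0e-06). It was called the other way with palbociclib in CAMA-1 (1.16, adjusted p = 0.034), from 5 to 12 counts with DMSO to 18 to 25. BSG, the chaperone of both carriers, fell with palbociclib in CAMA-1 (−0.40) and rose with both drugs in ZR-75-1 (0.68 and 0.30). The CAMA-1 libraries overlapped, at 87.6, 94.7 and 92.2 CPM with palbociclib and 125.8, 140.7 and 90.5 with DMSO. Of 5 lactate export genes, 3 were tested in CAMA-1, where 0 were higher and 1 lower under abemaciclib and 1 and 2 under palbociclib. Of the 4 tested in ZR-75-1, 1 was higher and 1 lower under abemaciclib, and 1 and 0 under palbociclib.

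MPC1, a subunit of the carrier that takes pyruvate into mitochondria, fell in CAMA-1 (−0.69, adjusted p = 3.4e-04; −1.04, adjusted p = 7.0e-07) and rose in ZR-75-1 (0.46, adjusted p = 0.021; 0.71, adjusted p = 2.8e-04), and the lines differed with both drugs (1.13, adjusted p = 1.5e-04; 1.72, adjusted p = 1.5e-08). Among the 13 tested genes of pyruvate entry, 3 were higher and 1 lower, 2 and 3, 4 and 0, and 4 and 0. PDPR and PDP2, which belong to the phosphatase that switches pyruvate dehydrogenase on, rose in all 4 comparisons (0.49, 0.60, 1.00 and 1.16 for PDPR). FBP1, the fructose bisphosphatase that opposes phosphofructokinase, fell in CAMA-1 (−1.12, adjusted p = 5.9e-05; −0.91, adjusted p = 5.3e-04) and was at −0.03 and −0.18 in ZR-75-1. PCK2, the mitochondrial phosphoenolpyruvate carboxykinase, fell in all 4 (−0.80, −0.62, −1.35 and −0.96). Of the 4 tested gluconeogenesis genes, 0 were higher and 2 lower with each drug in CAMA-1, and 2 and 1, and 1 and 1, in ZR-75-1.

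SLC2A1, PGK1, ENO1 and LDHA are textbook hypoxia-response genes, so 19 others outside glycolysis were set beside them. Of these, 16 were tested in CAMA-1 and 15 in ZR-75-1. There were 5 higher and 0 lower, then 5 and 0, 3 and 1, and 4 and 1. Of all genes tested, 20.3, 18.4, 17.9 and 14.5% were called higher in the same order. The shares called lower were 20.1, 18.7, 18.3 and 13.4%. KDM4B, a histone demethylase gene, rose in all 4 (0.89, 0.65, 0.72 and 0.63), and P4HA2, a collagen prolyl hydroxylase gene, in 3 of them (0.74 and 0.64 in CAMA-1, 0.84 with palbociclib in ZR-75-1). VEGFA, which encodes an angiogenic growth factor, fell in ZR-75-1 (−1.02, adjusted p = 0.0088; −1.31, adjusted p = 0.0012) and was not called in CAMA-1 (0.26 and 0.12). Of the genes of glycogen metabolism, 8 were tested in CAMA-1 and 9 in ZR-75-1. Here 1 was higher and 2 lower, then 0 and 1, 1 and 2, and 0 and 0. GYS1, a glycogen synthase, was the 1 higher with abemaciclib in ZR-75-1 (0.53, adjusted p = 0.0022).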

How the data were processed

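RNA from 18 libraries of CAMA-1 and ZR-75-1 cells (CAMA1 and ZR751 in the labels) was sequenced with a Lexogen 3′ messenger RNA kit, whose strand version differs between the labels and the methods. The authors trimmed reads with BBDuk, aligned them with STAR 2.7.5b to hg38 and deposited raw read counts per gene from featureCounts 2.0.1, as the submitters' processing notes and the methods give it. Strand, multi-mapping and molecular identifiers in the counting were not given in the sources used here. Reads that match copies of a gene or overlapping genes may therefore be lost or shared.

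From these counts, 60445 of 60656 row identifiers matched the reference's list of gene names once their version was dropped, and 42058 had a symbol. Rows without one held 1.04% of the counts. Positions are those of GENCODE on hg38. Genes were filtered with filterByExpr, scaled by TMM and tested with the quasi-likelihood F test of edgeR 4.0.16 in R 4.3.3, with Benjamini-Hochberg adjustment over all genes tested and calls at an adjusted p under 0.05. Drug comparisons used the 9 libraries of a line, and comparisons of lines all 18. The summed CPM was tested by exact permutation. Likeness used log2 CPM (prior count 2) after subtracting the line mean, among genes with a mean of at least 20 CPM in both lines. Replicates of a group differed by more than sampling noise (chi-square per degree of freedom 1.83 to 5.18 over 18 pairs). The floor of 3 counts covers counting error only.

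Alternatives were DESeq2 1.42.0, RLE and upper-quartile factors, no filter or a stricter filter of 10 counts, removal of mitochondrially encoded rows, addition of pseudogene rows, a replicate block, the fit of all libraries and leaving out each library. On simulated counts with the CAMA-1 abemaciclib design and 10891 genes, 42% of log2 changes of 0.5 and 96% of changes of 1 were recovered. In the design for the difference between lines with abemaciclib, with 11791 genes, 17% and 66% were recovered. The members, gene lists and tests were chosen with earlier results of these data known. All members were named, with pathway genes of the smallest adjusted p in each direction of a list, isozyme partners, the enzymes of the missing steps and a fixed set of regulators. A few results outside the members are not reported here.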

Additional observations from a re-analysis of the deposited data

Results flagged for a closer look

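The responses of the lines were compared by an interaction term in the edgeR fit, and 10 member responses differed at an adjusted p under 0.05. Of all genes, 8.19% were above and 10.0% below with abemaciclib, and 10.0% and 10.3% with palbociclib. With abemaciclib, the ZR-75-1 log2 fold change was above the CAMA-1 one by 0.99 for HK2, 0.55 for PKM, 0.42 for GPI and 0.38 for HK1, and below it for SLC2A1 (−0.45). With palbociclib it was above it by 1.07 for PFKP, 0.80 for PKM, 0.52 for GPI, 0.47 for PGK1 and 0.40 for LDHA. With 1 of the 18 libraries left out, the abemaciclib call was lost in 13 fits for SLC2A1, 5 for HK2 and 3 for HK1. The palbociclib call of LDHA was lost in 1. PKM and GPI thus differed with both drugs. The groups hold 3 libraries each, which is too few for a search for single stray libraries.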

How the results depend on the processing

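Of 702 recomputed member values under other settings, 693 kept their direction and their side of the threshold, as did 909 of the 972 with 1 library left out. Without a filter on low counts, 3 members in place of 5 differed between the lines with abemaciclib, since HK1 (adjusted p = 0.091) and HK2 (adjusted p = 0.057) no longer passed. With 1 library left out, that count ran from 2 to 5, and the count of members that differed between the drugs in CAMA-1 from 0 to 1. Over such fits, uncalled values that changed sign were PKM with palbociclib in CAMA-1 (−0.047 to 0.11), HK2 and PGK1 with palbociclib in ZR-75-1 (−0.056 to 0.32 and −0.016 to 0.097), PFKP between drugs in CAMA-1 (−0.28 to 0.10), SLC2A1, HK2, GPI and PKM between drugs in ZR-75-1 (−0.13 to 0.027, −0.10 to 0.31, −0.023 to 0.048 and −0.10 to 0.054), PGK1 between the lines with abemaciclib (−0.047 to 0.13) and PFKP between the lines with DMSO (−0.059 to 0.067). The cause was not tested. Members were measured with at most 69 counts a library for HK2, which limits its calls.

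Replicate numbers did not pair the libraries: the 18 correlations of same-numbered libraries ran from −0.078 to 0.012. In 3 of these 18 comparisons the same-numbered library was the closest of the other group. With the replicate block, the PFKP difference between the lines with DMSO was −0.068, the GPI one lost its call (0.19, adjusted p = 0.096), and no other call changed.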
